A study of Bos taurus with 4 samples.

Results

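Arterial-type endothelial nuclei were examined in single-nucleus RNA sequencing of subcutaneous fat from the back of 2 beef cattle, with the intramuscular fat of the same animals as the other depot. The series' design text calls the animals steers and the sample titles call them cows. A nucleus of a subcutaneous library was a member when it had at least 200 detected genes, at least 1 UMI (a counted RNA molecule) in at least 2 of the 7 genes BMX, GJA5, DKK3, TNFRSF11B, IGFBP3, HMCN1 and RND3, and at least 1 UMI in at least 1 of the 5 endothelial genes PECAM1, TEK, EGFL7, PTPRB and CDH5. It also had to have 0 UMIs of PDGFRA (fibroblasts), MYH11 (smooth muscle), CSF1R (macrophages), GPIHBP1 (capillaries) and MMRN1 (lymphatic and some venous vessels). The members were 87 of the 881 kept nuclei of animal 1, or 9.88% (95% exact binomial interval 7.99 to 12.04), and 106 of the 6128 kept nuclei of animal 2, or 1.73% (1.42 to 2.09). That made 193 of the 7009 kept subcutaneous nuclei and of the 8849 kept nuclei in all 4 libraries. Each animal gave 1 library per depot. No treatment, genotype or diet separated the groups, and per the labels the breed, age and diet of the cattle were unknown. Where nothing says otherwise, a value is given for animal 1 first and animal 2 second.

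Arteries carry blood under pressure, and their lining differs from that of capillaries and veins. Notch signalling holds the arterial state through ligands such as JAG1 and DLL4 and the repressors HEY1 and HEY2, and the connexins GJA4 and GJA5 couple the cells to each other. Arterial endothelium releases agents that set vessel tone, among them nitric oxide, prostacyclin and endothelin, and it lies on a wall rich in elastic fibres. Capillaries of fat and muscle carry the machinery that takes up fatty acids, such as GPIHBP1, CD36 and the fatty acid binding proteins.

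The libraries differed in ways that touch the results. The members' UMIs summed to 151645 and 117498, with a median of 1032 and 683 UMIs per nucleus and a range of 436 to 11870 and 354 to 6055. The subcutaneous libraries also held skeletal muscle RNA. Of 20 contractile genes, 19 were detected in the members and TTN was at 0, and they took 0.961% and 7.38% of the members' UMIs, against 6.18% and 22.8% of the UMIs of the other kept nuclei. In the intramuscular libraries these genes took at most 0.0076% of the UMIs of kept nuclei. Whether the vessels sampled lay in fat or in muscle therefore cannot be told apart, although the labels name fat. No barcode of a member was shared with another library.

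The label of arterial endothelium was checked on genes that the rule did not use and on each rule gene in turn. The values of the rule genes themselves chose the nuclei and are a description. IGFBP3, which binds insulin-like growth factors, was detected in 83.9% of the members of animal 1 and in 53.8% of those of animal 2, at 7748 and 5864 CPM (UMIs of the gene per 1000000 UMIs of the class). DKK3, a secreted protein of the Dickkopf family, was found in 71.3% and 39.6%, and HMCN1, a large matrix protein, in 57.5% and 62.3%. RND3 was found in 52.9% and 65.1%. GJA5 (connexin 40) was found in 40.2% and 24.5%, BMX, a kinase used as a marker of arterial lining, in 39.1% and 41.5%, and TNFRSF11B (osteoprotegerin) in 37.9% and 26.4%. As a background level, the shares were also taken in nuclei where contractile genes held at least 20% of the UMIs and no endothelial gate gene was found: BMX was seen in 1.19% and 0.37% of them and IGFBP3 in 3.57% and 3.14%. This background covers BMX and IGFBP3 only, and shares in fibroblast and smooth muscle nuclei are not given here. The median depth was 1032 and 683 UMIs in the members, against 913 and 515 UMIs in those muscle-rich nuclei, and the part of free RNA and of depth in these shares was not tested.

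Most members carried more than the minimum. Of the 193 members, 66 had UMIs of exactly 2 of the 7 arterial genes, 51 had 3, 36 had 4, 17 had 5, 10 had 6 and 13 had all 7. BMX or GJA5 was detected in 113 members, or 58.5%. DKK3 and IGFBP3 were found together in 82 members. A single endothelial gate gene was the ground for entry of 58 members, and 135 had 2 or more in all (74 in animal 1 and 61 in animal 2).

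Each arterial gene stayed frequent when the nuclei were chosen by the other 6 genes alone, so that its own UMIs had no say. Other endothelial nuclei, used as the comparison here and below, had at least 2 of the 5 endothelial gate genes, none of PDGFRA, MYH11 and CSF1R, and did not meet the arterial rule. BMX was detected in 36.9% (26.6 to 48.1) and 35.4% (25.9 to 45.8) of arterial-type nuclei chosen without it, against 5.26% (1.10 to 14.6) and 8.18% (3.81 to 14.96) of the other endothelial nuclei. TNFRSF11B was detected in 34.9% and 23.5% of arterial-type nuclei chosen without it, against 6.90% and 1.89% of the others. For all 7 genes the share was higher in arterial-type nuclei in both animals, and the 95% intervals of the 2 classes did not overlap. The exclusion of nuclei with 2 other arterial genes from the comparison class lowers its shares, so that these gaps describe co-detection of the genes and are not a test. Of the endothelial gate genes left out in the same way, CDH5 (VE-cadherin) was found in 25.3% and 18.9% of arterial-type nuclei against 49.0% and 28.9% of the others, and EGFL7 (a secreted endothelial protein) in 81.7% and 38.3% against 90.3% and 62.1%. TEK (the angiopoietin receptor TIE2) was found in 61.4% and 45.7% of arterial-type nuclei against 30.6% and 27.3% of the others, and PECAM1 (an adhesion molecule of endothelial junctions) in 71.1% and 52.2% against 48.9% and 47.9%. PTPRB (a receptor phosphatase) was found in 47.1% and 33.7% against 22.4% and 32.9%, nearly equal in animal 2. The 95% intervals of the 2 classes overlapped in both animals for CDH5, EGFL7, PECAM1 and PTPRB, and in animal 2 for TEK. With a gate gene left out, the comparison class had to show at least 2 of the remaining gate genes and the members only 1, so that the gates were unlike.

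**Figure D1:**
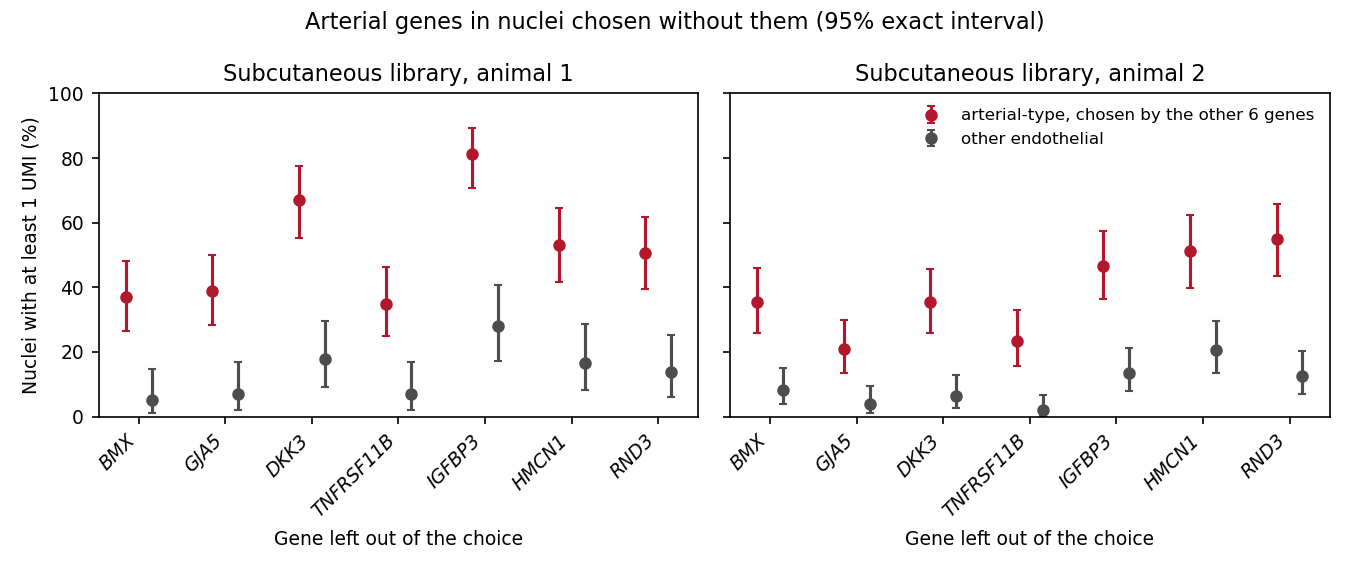
Share of nuclei with at least 1 UMI (%, y axis) of each of the 7 arterial genes (x axis) when nuclei were chosen by the other 6 genes, in arterial-type nuclei (red) and other endothelial nuclei (grey) of each subcutaneous library; bars are 95% exact binomial intervals. In both animals all 7 red points lie above the grey ones, for example at 36.9% and 5.26% for BMX in animal 1.

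A list of 28 other arterial genes, none of them in the rule, took 1.09% and 0.702% of the members' UMIs, against 0.481% and 0.417% in the other endothelial nuclei, 0.361% and 0.100% in all other kept nuclei and 0.085% and 0.057% in the muscle-rich nuclei. Nuclei that met every other condition but had none of the 7 genes (68 and 313 nuclei) held 2705 and 1747 CPM of this list, and those just outside the threshold with 1 of them (22 and 62 nuclei) held 4454 and 3484 CPM. Members just inside it with 2 arterial genes (22 and 44 nuclei) held 8801 and 4096 CPM, those with 3 (17 and 34 nuclei) held 7362 and 6094 CPM, and those with 4 or more (48 and 28 nuclei) held 11893 and 9093 CPM. In animal 2 the nuclei on either side of the threshold had overlapping counting intervals (3425 to 4861 CPM inside and 2973 to 4059 CPM outside), so that the edge of the class was not sharp there. In animal 2 the contractile genes held 113512 CPM in members with 2 arterial genes and 43818 CPM in those with 4 or more. Median depth also differed, at 569 UMIs for members of animal 2 with 2 arterial genes and 1512 UMIs for those with 4 or more, and the part of depth and muscle RNA in this order was not tested.

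Contractile genes of skeletal muscle took 0.961% and 7.38% of the members' UMIs, as given above. Marker genes of the other cell types listed here took smaller shares of the members' UMIs, and those of fibroblasts were uneven. The 10 lymphatic genes took 0.0033% and 0.0017% of their UMIs, with LYVE1, FLT4 and RELN at 0, and the 10 macrophage genes took 0.0073% and 0.0043%, with PTPRC, CD163 and MRC1 at 0. The 10 fibroblast genes took 0.463% and 0.102%, against 0.293% and 0.052% in the other endothelial nuclei. In animal 1 they held 10249 CPM in members with 2 arterial genes and 9283 CPM in those with 3, above the 8801 and 7362 CPM of the other arterial genes there, and 2862 CPM in members with 4 or more. In animal 2 they held 1876, 502 and 798 CPM in the same order. The 34 members of animal 1 without BMX and GJA5 held 10002 CPM of fibroblast genes and 7259 CPM of capillary genes, against 2187 and 2168 CPM in the 53 members with either gene. The 12 adipocyte genes took 0.251% and 0.017%, against 0.254% and 0.030%. The 14 smooth muscle and pericyte genes took 0.073% and 0.326%, against 0.191% and 0.439%, with KCNJ8 and STEAP4 at 0 in the members of both animals.

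The first comparison asked how the arterial-type nuclei differed from the other endothelial nuclei of the same library (55 and 104 nuclei with 90002 and 122617 UMIs in sum). Arterial-type nuclei had more RNA of endothelin, of prostaglandin enzymes and of elastic fibre and matrix genes, and far less of the fatty acid uptake and other capillary genes. UMIs were summed per library and class and fitted with edgeR's quasi-likelihood test with the library as a block. Of 2775 genes tested outside the rule, 194 passed an adjusted p of 0.05 (Benjamini-Hochberg), or 6.99% of them. The 104 higher genes were 3.75% of those tested and the 90 lower genes 3.24%, and the median log2 fold change of all genes was -0.04. With 2 libraries the fit had 1 residual degree of freedom, and without the library block no gene passed (338 genes had an unadjusted p under 0.05), while DESeq2 with the block called 63 genes.

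**Figure D2:**
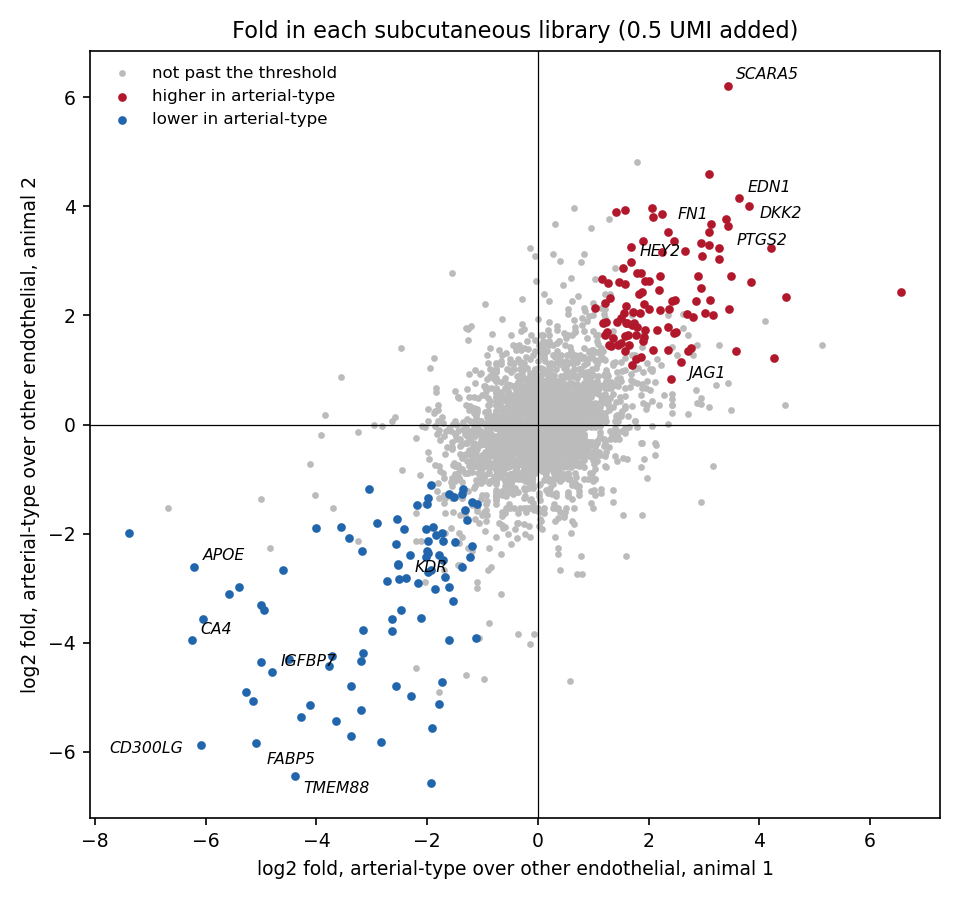
Log2 fold change of arterial-type over other endothelial nuclei in animal 1 (x axis) and animal 2 (y axis), from CPM with 0.5 UMI added, for the 2775 genes tested outside the rule; red and blue points are the 104 higher and 90 lower genes of edgeR's test and grey points did not pass. The coloured genes lie in the same quadrant in both animals, with EDN1, FN1 and PTGS2 at the upper right and CD300LG, FABP5 and CA4 at the lower left.

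The genes of vessel tone stood out among the higher ones. EDN1, which encodes endothelin 1, a peptide that constricts vessels, had 343 and 213 CPM in arterial-type nuclei, against 22.2 and 8.16 CPM in the other endothelial nuclei. Its UMIs came from 21 of 87 and 15 of 106 arterial-type nuclei, and from a single nucleus of each library in the comparison class. The ratio of pooled UMIs was 20.3 (95% counting interval 6.68 to 100) and the log2 fold change was 4.11 ± 0.52 (SE) in edgeR, with an adjusted p of 0.00337. PTGS2 (cyclooxygenase 2, which starts prostaglandin synthesis from arachidonic acid) had 1016 and 757 CPM against 88.9 and 57.1 CPM, with a log2 fold change of 3.56 ± 0.38 (adjusted p = 0.00206, edgeR). PTGS2 was detected in 40 of 87 and 26 of 106 arterial-type nuclei.

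Other enzymes of the same route and of nitric oxide were higher as well. PTGS1 (cyclooxygenase 1) had 514 and 434 CPM against 55.6 and 40.8 CPM, a log2 fold change of 3.24 ± 0.39. PTGIS (prostacyclin synthase) had 442 and 485 CPM against 77.8 and 97.9 CPM, a log2 fold change of 2.34 ± 0.35. NOS3 (endothelial nitric oxide synthase) had 462 and 409 CPM against 122 and 171 CPM, a log2 fold change of 1.51 ± 0.34, and it overlaps ATG9B in the gene table used, so that its UMIs may in part be of that gene. In each of these genes both arterial-type values lay above both values of the other endothelial nuclei. Of 14 tested members of the list on vessel tone and shear, 4 were higher (EDN1, PTGS1, PTGIS and NOS3) and 0 were lower, with a median log2 fold change of 1.02. Among those that did not pass, ACE (angiotensin converting enzyme) had a log2 fold change of 2.30 with an adjusted p of 0.0546, and CAV1 (caveolin 1) one of 0.39 with an adjusted p of 0.618 in edgeR's test. NOS3 and PTGIS lost the call in DESeq2. PTGS1, PTGIS and NOS3 lost it when nuclei of 5% or more contractile UMIs were left out of both classes, and NOS3 also with at least 500 genes per nucleus and when nuclei with GPIHBP1 or MMRN1 were left out of the comparison class, so that EDN1 alone of the 4 passed in all of these.

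By count, matrix genes formed the largest group of higher genes among the lists, and theirs was also the largest list, with 32 genes and 22 tested. Over all genes tested outside the rule 3.75% were higher. FN1 (fibronectin) had 2275 and 1200 CPM in arterial-type nuclei, against 256 and 89.7 CPM in the other endothelial nuclei, with a log2 fold change of 3.36 ± 0.38 (adjusted p = 0.00245, edgeR). ELN (elastin, the core of elastic fibres) had 1767 and 1132 CPM against 433 and 179 CPM, and MGP (matrix Gla protein, an inhibitor of calcification) had 2071 and 1489 CPM against 433 and 163 CPM. LTBP1, which tethers latent TGF-beta to the matrix, had 989 and 996 CPM against 122 and 114 CPM, nearly the same in both animals. FBLN1, FBLN2, BGN and COL8A1 were also higher. COL4A1 and NID1, which belong to the basement membrane, were lower, at 534 and 136 CPM against 1856 and 734 CPM for COL4A1. In sum 8 of 22 tested matrix genes were higher and 2 were lower, with a median log2 fold change of 0.55.

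Fibroblasts also make many of these matrix proteins. The levels of FN1, ELN and LTBP1 were therefore set beside those of PDGFRA-positive nuclei of the same libraries without endothelial gate genes. Levels of MGP, FBLN1, FBLN2, BGN and COL8A1 in those nuclei are not given here, nor are levels in smooth muscle nuclei. FN1 had 2275 and 1200 CPM in arterial-type nuclei, against 6869 and 341 CPM in the fibroblast nuclei. In animal 2 the arterial-type level was thus above the fibroblast one, and in animal 1 below it. ELN and LTBP1 were above the fibroblast level in both animals, at 425 and 99.5 CPM for ELN and 345 and 71.1 CPM for LTBP1 in fibroblast nuclei. The 10 fibroblast genes themselves gave 0 higher and 0 lower calls among 6 tested, with a median log2 fold change of 0.47. Of those 6, none passed in edgeR, and their part in the matrix values was not tested.

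The largest fold changes upward belonged to genes of several kinds. SCARA5, a scavenger receptor that binds ferritin, had 415 and 298 CPM in arterial-type nuclei, against 33.3 and 0 CPM in the other endothelial nuclei, where 3 UMIs were counted in all. The ratio of pooled UMIs was 25.8 (8.57 to 127), and fibroblast nuclei held 793 and 156 CPM. DKK2, a secreted Wnt antagonist, had 231 and 323 CPM against 11.1 and 16.3 CPM, a ratio of pooled UMIs of 19.2 (6.32 to 95.4), and was the 1 higher gene of 6 tested Wnt genes. METRNL, which encodes a secreted protein related to meteorin, had 521 and 238 CPM against 0 and 40.8 CPM, and FBLIM1, an adaptor at sites of cell adhesion, had 330 and 417 CPM against 33.3 and 32.6 CPM. SULF1 (a sulfatase of heparan sulfate), SCN1A (a sodium channel subunit), AFAP1L2, CYB561 and ENSBTAG00000032603 completed the 12 largest, each with 1 to 3 UMIs in all in the comparison class. None of these 5 passed in DESeq2, nor did METRNL, and SCN1A, AFAP1L2, CYB561 and ENSBTAG00000032603 also did not pass when nuclei with GPIHBP1 or MMRN1 were left out of that class.

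**Figure D3:**
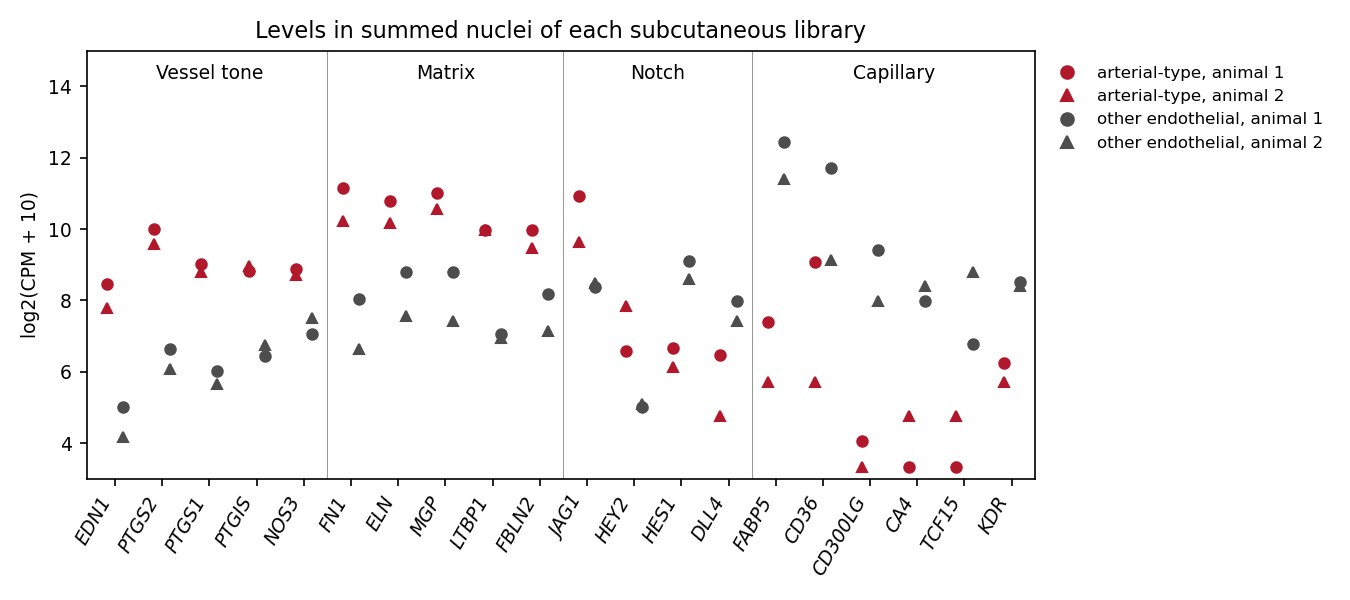
Level of 20 genes (x axis, grouped by role) as log2(CPM + 10) (y axis) in the summed arterial-type nuclei (red) and other endothelial nuclei (grey) of animal 1 (circles) and animal 2 (triangles). Both red points lie above both grey ones for the genes of vessel tone and of the matrix and for JAG1 and HEY2, and both lie below both grey ones for HES1, DLL4 and the 6 capillary genes shown.

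Notch genes were split. JAG1, a Notch ligand, had 1952 and 783 CPM in arterial-type nuclei, against 322 and 351 CPM in the other endothelial nuclei, with a log2 fold change of 1.83 ± 0.41 (adjusted p = 0.0307, edgeR). HEY2, a repressor that Notch switches on, had 85.7 and 221 CPM against 22.2 and 24.5 CPM, a log2 fold change of 2.68 ± 0.59. HES1, another Notch target, was lower, at 92.3 and 59.6 CPM against 544 and 375 CPM, and so was the ligand DLL4, at 79.1 and 17.02 CPM against 244 and 163 CPM. Of 8 tested Notch genes, 2 were higher and 2 lower, with a median log2 fold change of -0.32. HEY1 had 119 and 119 CPM against 11.1 and 89.7 CPM and did not pass (adjusted p = 0.353, edgeR). JAG1, HEY2 and DLL4 did not pass in DESeq2, which left HES1 of the 4. JAG1 and DLL4 also lost the call with at least 500 genes per nucleus and with under 5% contractile UMIs, and JAG1 further under scaling by relative log expression and without GPIHBP1 and MMRN1 nuclei in the comparison class, where its log2 fold change was 1.19.

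The list of other arterial genes had 19 tested members, of which 5 were higher (EDN1, MGP, ELN, HEY2 and JAG1) and 2 lower (DEPP1 and DLL4), with a median log2 fold change of 0.78. The lists overlap, and all 5 were already counted above: EDN1 under vessel tone, MGP and ELN under matrix, and HEY2 and JAG1 under Notch. DLL4 is on the Notch list too, so that these counts are not independent of the earlier ones. Several classical arterial genes did not pass: SOX17, a transcription factor of arterial fate, had 165 and 128 CPM against 122 and 212 CPM, and GJA4 (connexin 37) had 132 and 187 CPM against 55.6 and 139 CPM. The transcription factor gene ID2 was also higher, at 1233 and 996 CPM against 322 and 326 CPM, one of 2 higher genes among 11 tested of the TGF-beta and BMP list (the other was LTBP1), while SMAD1 was lower.

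**Figure D4:**
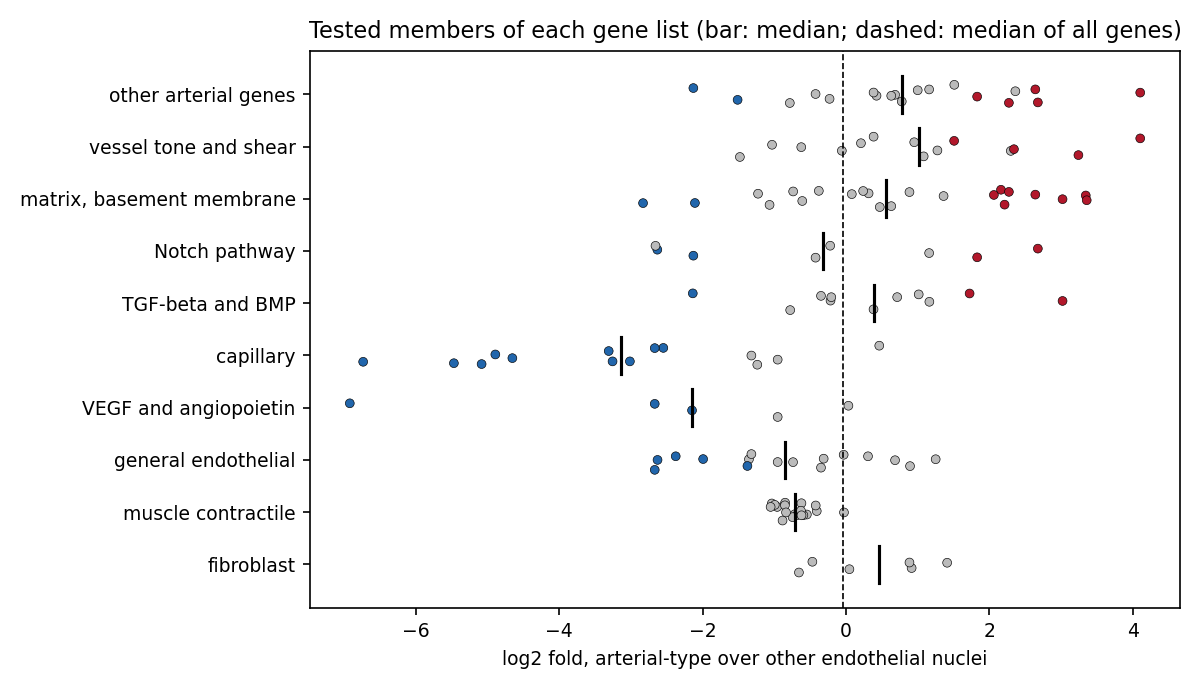
Log2 fold change of arterial-type over other endothelial nuclei (x axis) for the tested members of 10 gene lists (rows); red, blue and grey points are genes higher, lower or not past the threshold, black bars are list medians and the dashed line is the median of all genes (-0.04). The capillary list lies furthest to the left, with 10 of 14 genes lower and a median of -3.13, and of the 10 lists drawn the one on vessel tone has the highest median, 1.02.

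Most of the capillary genes tested were lower. FABP5, a fatty acid binding protein, had 158 and 42.6 CPM in arterial-type nuclei, against 5500 and 2683 CPM in the other endothelial nuclei, with a log2 fold change of -5.47 ± 0.46 (adjusted p = 0.00159, edgeR). CD36, which takes up fatty acids, had 534 and 42.6 CPM against 3333 and 546 CPM. CD300LG, an endothelial surface glycoprotein, had 1 UMI in the arterial-type nuclei and 90 in the others, a ratio of pooled UMIs of 114 (19.9 to 4549) in favour of the other endothelial nuclei. CA4, a carbonic anhydrase on the capillary surface, and TCF15, a transcription factor of fatty acid uptake in capillaries, had 2 UMIs each in arterial-type nuclei against 62 each, a ratio of 39.2 (10.4 to 331) for the other endothelial nuclei over the arterial-type ones.

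Counted over the list, 10 of 14 tested capillary genes were lower and 0 higher, with a median log2 fold change of -3.13. The rule barred GPIHBP1 in arterial-type nuclei alone, and GPIHBP1 was present in 38.2% and 14.4% of the other endothelial nuclei. With nuclei of GPIHBP1 or MMRN1 left out of the comparison class as well, 9 of 14 capillary genes were lower, with a median of -2.90. IGFBP7, an insulin-like growth factor binding protein of small vessels, had 72.5 and 25.5 CPM against 2111 and 685 CPM, a log2 fold change of -4.85 ± 0.41 (adjusted p = 0.00159, edgeR). IGFBP7 overlaps POLR2B in the gene table used.

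Several receptors of growth factors and peptides were lower too. KDR (VEGF receptor 2) had 65.9 and 42.6 CPM in arterial-type nuclei, against 356 and 326 CPM in the other endothelial nuclei. APLNR, the apelin receptor, had 0 UMIs against 27, so that its level in the other endothelial nuclei was at least 4.35-fold higher, taking 3 counts per library as the floor. RFLNA also had 0 UMIs against 26 (at least 4.79-fold higher in the others by the same floor). NRP1, a co-receptor of VEGF, was lower too, so that 3 of 5 tested genes of that list were lower and 0 higher. TMEM88, LZTS1, IFI27, LAPTM5 and APOE made up the rest of the 12 genes with the largest fall, with 1 to 6 UMIs each in arterial-type nuclei. APOE and APLNR did not pass when nuclei with GPIHBP1 or MMRN1 were left out, and LAPTM5 overlaps MATN1.

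Venous and general endothelial genes gave a mixed picture. NR2F2 (COUP-TFII, a factor of venous fate) had 2 UMIs in arterial-type nuclei against 32, and RAMP3, a subunit of adrenomedullin receptors, had 607 and 706 CPM against 88.9 and 171 CPM, a log2 fold change of 2.30 ± 0.35. NR2F2 did not pass in DESeq2, and RAMP3 did not pass without GPIHBP1 and MMRN1 nuclei in the comparison class. Of 16 tested general endothelial genes, 5 were lower (EMCN, KDR, ESAM, ADGRL4 and ROBO4) and 0 higher, with a median log2 fold change of -0.84. VWF (von Willebrand factor) had 495 and 511 CPM against 1167 and 555 CPM and did not pass. The comparison class had to show 2 endothelial gate genes and the members only 1: with the same gate of at least 1 gene and the same exclusions in both classes, 2 general endothelial genes were higher and 1 lower, the median was 0.32, and ROBO4 had a log2 fold change of 0.08. Under that choice 550 genes passed, 133 of them among the 194, and the list of other arterial genes had 11 of 19 higher and 0 lower. The comparison class then held 90 and 375 nuclei. Of these, the 68 and 313 without any of the 7 arterial genes held 73546 and 194007 CPM of contractile genes. In the members these genes took 0.961% and 7.38% of UMIs. The counts under this choice describe that choice of nuclei and are not a test of the arterial label, and the part of muscle RNA in them was not tested.

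Pericytes share the vessel wall, and RGS5, a pericyte gene, had 3 UMIs in arterial-type nuclei against 48 in the other endothelial nuclei. The 19 tested contractile genes of skeletal muscle had log2 fold changes from -1.05 to -0.03 with a median of -0.71, none past the threshold in edgeR. Contractile genes took 0.961% and 7.38% of UMIs in arterial-type nuclei, against 2.15% and 8.79% in the other endothelial nuclei. With nuclei of 5% or more contractile UMIs left out of both classes 66 genes passed, 63 of them among the 194.

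Of the 23 named higher genes, 8 passed in every one of the up to 10 alternatives that kept the library block and could test them, namely DKK2, EDN1, ELN, FBLIM1, FN1, LTBP1, PTGS2 and SCARA5. Of the 26 named lower genes, 13 did, among them FABP5, CD300LG, IGFBP7, HES1 and EMCN. Of these 13, HES1, IFI27, LAPTM5, RFLNA and RGS5 had no adjusted p without GPIHBP1 or MMRN1 nuclei in the comparison class. DESeq2 did not call 12 of the 23 higher and 9 of the 26 lower genes, which were ADGRL4, DEPP1, DLL4, EFNA1, ESAM, NR2F2, NRP1, ROBO4 and SMAD1. The 12 included ID2 and PLXNA2 beside those given above. With under 5% contractile UMIs 9 of the 20 higher genes that had an adjusted p lost the call, MGP and PLXNA2 among them. Of the 21 lower ones that had an adjusted p, 7 lost it (DEPP1, DLL4, ESAM, LZTS1, NRP1, ROBO4 and SMAD1). Without GPIHBP1 and MMRN1 nuclei 8 of 21 higher and 9 of 18 lower genes with an adjusted p lost it, and 8 lower genes had none. With the same gate and exclusions 0 of 23 higher and 6 of 15 lower genes with an adjusted p lost it, KDR among the 6, and 11 lower genes had none.

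Against capillary-type nuclei (26 and 25 nuclei with GPIHBP1, at least 1 endothelial gate gene and none of PDGFRA, MYH11, CSF1R and MMRN1), 246 of 1984 genes passed, or 12.4%, with 136 higher (6.85%) and 110 lower (5.54%) in edgeR's quasi-likelihood test. These nuclei overlap the comparison class above, so the results are not independent. PTGIS had 442 and 485 CPM in arterial-type nuclei, against 16.5 and 0 CPM in capillary-type nuclei, and PTGS1 had 514 and 434 CPM against the same 16.5 and 0 CPM. CRISPLD1, a secreted protein gene, had 108 UMIs in arterial-type nuclei and 0 in capillary-type nuclei, at least a 4.05-fold difference by the floor of 3 counts per library, and did not pass in DESeq2 (adjusted p = 0.602), which gave no adjusted p for the other 5 named higher genes. For EDN1, with 77 UMIs against 0, the bound was at least 3.07-fold, and TSPAN5, C5AR2, TTC21B and ITGB4 were also at 0 UMIs in capillary-type nuclei. C5AR2 overlaps DHX34.

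JAG1 had 1952 and 783 CPM in arterial-type nuclei, against 165 and 115 CPM in capillary-type nuclei, a log2 fold change of 3.14 ± 0.49 (adjusted p = 0.000257, edgeR). The lower genes were again led by CD300LG, RFLNA, TMEM88, FABP5, LZTS1 and APOE, and 10 of 13 tested capillary genes were lower. The rule barred GPIHBP1 in the members while the capillary-type nuclei had to show it. The lower capillary genes here therefore describe that choice of nuclei and are not a test. Without the library block no gene passed (355 had an unadjusted p under 0.05), and with at least 3 arterial genes required of the members 75 genes passed. DESeq2 called 57 genes and gave no adjusted p for 658 of the 1984.

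Against all other kept nuclei of the same library (794 and 6022 nuclei), 914 of 7856 genes passed, or 11.6%, with 462 higher (5.88%) and 452 lower (5.75%) in edgeR's test. The median log2 fold change of all genes was -0.11. The list of other arterial genes had 15 of 26 tested members higher and 0 lower, with a median of 2.10. GJA4, SOX17 and HEY1, which did not pass against the other endothelial nuclei, were among these 15: GJA4 had 132 and 187 CPM in arterial-type nuclei against 25.2 and 14.9 CPM, and SOX17 had 165 and 128 CPM against 29.3 and 13.4 CPM. In all, 10 of 18 general endothelial genes were higher and 0 lower, among them ERG, an endothelial transcription factor, with 191 and 170 CPM against 36.3 and 12.6 CPM. Of the 6816 other kept nuclei 3872 were muscle-rich, and the rule asked only the members for an endothelial gate gene. The counts of higher arterial and endothelial genes here therefore describe that choice of nuclei and are not a test of the arterial label.

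SERPINA5, a protease inhibitor of the coagulation system, had the largest fold change among the named higher genes of this comparison, with 198 and 76.6 CPM in arterial-type nuclei against 8.07 and 1.03 CPM in all other nuclei, a log2 fold change of 4.86 ± 0.66 (adjusted p = 3.49e-10, edgeR). This fit had 1 residual degree of freedom and infinite prior degrees of freedom, so that the spread of each gene was taken from all genes. The p therefore does not measure how far the 2 animals agreed on SERPINA5. Without the library block its adjusted p was 0.0863 in edgeR. CX3CL1 (fractalkine, a membrane-bound chemokine) had 554 and 366 CPM against 30.3 and 10.3 CPM. CRISPLD1 had 495 and 281 CPM against 27.2 and 8.48 CPM, and SCN1A, EGR3 and NEBL, which encodes a relative of the muscle protein nebulin, completed the 6. Of the ephrin and guidance list, 7 of 13 tested genes were higher, including EPHA4, NTN4, UNC5B and PLXNA2, and 0 were lower. Against the other endothelial nuclei 1 of 6 tested genes of that list was higher and 2 were lower. Against capillary-type nuclei 1 of 4 was higher and 2 were lower.

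Genes of several other cell types were among the lower ones of this comparison. All 19 tested contractile genes were lower, with a median log2 fold change of -2.61, as were 4 of 10 fibroblast genes, 5 of 10 smooth muscle and pericyte genes and 2 of 12 adipocyte genes, with 0 higher in each of these lists. Endothelial genes were among the lower ones too, with 6 of 17 capillary genes (0 higher) and 2 of 10 venous genes (1 higher). PERM1, a regulator of muscle metabolism, had 0 UMIs in arterial-type nuclei against 420, and ANO5 and PLCE1 also had 0, but none of these 3 passed in DESeq2. PERM1 overlaps PLEKHN1. With muscle-rich nuclei left out of the other nuclei 979 genes passed, 769 of them among the 914, and with nuclei of 5% or more contractile UMIs left out of both classes 543 passed, 295 of them among the 914. Without the library block no gene passed (976 had an unadjusted p under 0.05), and DESeq2 called 530 but gave no adjusted p for 1679 of the 7856 genes.

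**Figure D5:**
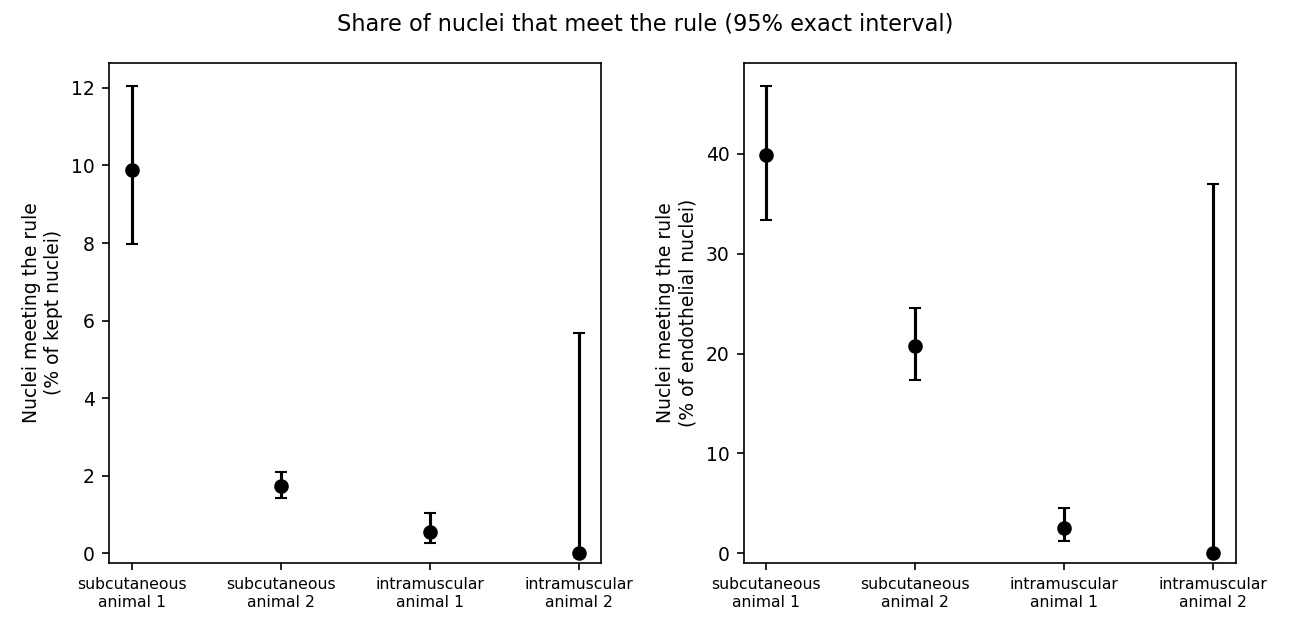
Share of nuclei that met the arterial rule in each library, as a percentage of all kept nuclei (left) and of endothelial nuclei (right), with 95% exact binomial intervals (counting error only). The subcutaneous libraries stand at 9.88% and 1.73% of kept nuclei and the intramuscular ones at 0.563% and 0%.

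Nuclei that met the same rule were few in the intramuscular libraries. They were 10 of 1777 kept nuclei of animal 1, or 0.563% (0.270 to 1.03), and 0 of 63 of animal 2 (exact interval 0 to 5.69%, where a floor of 3 counts is 4.76%), so that the 1.73% of the subcutaneous library of that animal lies within the interval. The mean share was 5.80% ± 5.76 in subcutaneous libraries and 0.281% ± 0.398 in intramuscular libraries (SD, n = 2 each), a difference of 5.52 percentage points (exact two-sided permutation test over the 4 libraries, p = 0.333, the smallest p this design allows). Within animals the difference was 9.31 points in animal 1 and 1.73 points in animal 2, which 2 pairs cannot take below p = 0.5 (exact two-sided sign-flip permutation test). Of endothelial nuclei, those with at least 1 gate gene and none of PDGFRA, MYH11 and CSF1R, the members were 39.9% and 20.7% in subcutaneous fat, against 2.52% and 0% (0 of 8) in intramuscular fat. After every nucleus was thinned to 500 UMIs, with shallower nuclei left out, the shares were 8.58% and 2.07% in subcutaneous libraries, against 0.169% and 0% in intramuscular libraries. The 2 subcutaneous libraries differed from each other by more than counting error, and without the subcutaneous library of animal 1 the difference between depot means was 1.45 points.

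The 10 intramuscular nuclei met the rule at its minimum, which is a description since the rule chose them. All 10 had exactly 2 of the 7 arterial genes, and the pair was IGFBP3 and RND3 in 5 of them. BMX and TNFRSF11B were at 0 UMIs in 21797 UMIs in all. Adipocyte genes took 1.55% of their UMIs and capillary genes 1.25%, against 0.251% and 0.017% for adipocyte genes and 0.376% and 0.084% for capillary genes in the subcutaneous members. With at least 3 arterial genes required, 65 and 62 subcutaneous nuclei remained and no intramuscular one.

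In a test of the subcutaneous members against these 10 nuclei (2 libraries against 1), 0 of 3573 genes passed in edgeR's quasi-likelihood test (0% called; 548 had an unadjusted p under 0.05), and DESeq2 called 7. The 7 were NEB, TPM2, TNNC2, TNNI2, ACTA1, MYLPF and ENSBTAG00000053626, all higher in subcutaneous members. The first 6 are genes of the contractile apparatus of muscle, and the 20 contractile genes took 0.0092% of the UMIs of the intramuscular nuclei. NOS3 had 70 and 48 UMIs in the subcutaneous members and 0 in the 10 intramuscular nuclei, and CAV1 had 3113 and 2613 CPM against 826 CPM. The lone intramuscular library is assumed in this fit to vary like the subcutaneous ones, and DESeq2 gave no adjusted p for 3399 of the 3573 genes.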

How the data were processed

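The authors deposited 1 matrix of raw UMI counts per library, made with Cell Ranger 6.0.1 per the file headers, and the submitters' processing notes name the build ARS-UCD1.2. Which annotation release was used, whether intronic reads were counted and whether doublets were removed is not given in the sources used here. Nuclei were released by homogenisation and put through the 10x Chromium 3' v3.1 kit, per the labels' protocols. The files list 21861 genes.

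Barcodes with at least 200 genes were kept, giving 881, 6128, 1777 and 63 nuclei (1143166, 4354483, 2719366 and 107849 UMIs per library in all barcodes). No doublet caller was run, and the rule bars UMIs of PDGFRA, MYH11 and CSF1R but no other gene of fibroblasts, smooth muscle or macrophages. UMIs were summed per library and class and tested with edgeR 4.0.16 (filterByExpr by class, TMM, glmQLFit, glmQLFTest, library as a block, Benjamini-Hochberg over all genes), with DESeq2 1.42.0 as an alternative, in R 4.3.3. Shares and figures were made in Python 3.11.15 with scipy 1.17.1. The 17 rule genes stayed in the fit and out of the counts. The block pairs classes that come from the same library and so from the same animal. The test was tried on simulated counts. CPM are UMIs per 1000000 UMIs of the summed class, and SE is the log2 fold change divided by the square root of the test's F. Both classes of a library share its free RNA, and intervals and floors cover counting error only.

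Named genes were, per comparison, those past the threshold with the same direction in both libraries and at least 50 CPM in the higher class: the 12 largest fold changes per direction against the other endothelial nuclei and 6 in the other 2 comparisons, and from each list the 4 with the smallest p. Other genes described were taken from the lists after their values were seen. The members and the 28 lists were chosen with earlier results of these data known. Overlaps between genes were read from a gene table of another assembly, ARS-UCD2.0, from which no coordinate is used. Nothing in the labels gives batches. Alternatives changed the block, the tool, the scaling, the filters and the gates. The comparison classes without GPIHBP1 and MMRN1, with equal gates, and without muscle-rich nuclei, and the share difference within animals, were added after the data were seen.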

Additional observations from a re-analysis of the deposited data

How the results depend on the processing

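Counts of genes that moved by over 1.5 times are given here by comparison, against 194, 246 and 914 genes in the fits with the library block. For other endothelial nuclei, 0 genes passed with no replicate block, 63 in DESeq2 with the block, 367 with no filter on low counts, 324 with at least 3 arterial genes, 66 with under 5% contractile UMIs, 65 without GPIHBP1 or MMRN1 nuclei in the comparison class, and 550 with the same gate and exclusions. For capillary-type nuclei, 0 passed with no replicate block, 57 in DESeq2, 75 with at least 3 arterial genes and 155 with under 5% contractile UMIs. For all other kept nuclei, 0 passed with no replicate block, 530 in DESeq2 and 543 with under 5% contractile UMIs. Between depots DESeq2 called 7 genes. The cause of these moves was not tested. Some gates also changed the class sizes. With at least 3 arterial genes the members fell from 87 and 106 to 65 and 62 nuclei, and the other endothelial nuclei rose from 55 and 104 to 69 and 122.

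Of 109 named results, 73 passed with the block and all 73 lost the threshold with no replicate block, none changing sign; DESeq2 lost 25, scaling by relative log expression 3 and a limit of under 10% mitochondrial UMIs 0. ROBO4 against other endothelial nuclei turned to a log2 fold change of 0.079 with the same gate and exclusions. The share difference between depots ran from 1.45 to 9.59 points when 1 library was left out. With 1 library left out of a comparison within subcutaneous fat no residual degrees of freedom remain, so only the folds per library are given. With the animals as a replicate block, a choice added after the data were seen, the mean share difference was 5.52 points as well (exact sign-flip permutation test, p = 0.5). For genes, no paired analysis was possible between depots because the intramuscular library of animal 2 had no such nucleus, and leaving out a library there was not run for the lack of residual degrees of freedom. Depth limits the smaller classes: 51 capillary-type and 10 intramuscular nuclei stand behind their values.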
